A study of Mus musculus with 8 samples.

Results

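The regions of open chromatin described here are those found in both ATAC-seq libraries of mTEC-III, a population of medullary thymic epithelial cells (mTEC) sorted from mouse thymus as CD45-, Epcam+ and Ly6D+. ATAC-seq uses a transposase that cuts accessible DNA and tags the cut ends, so that tags pile up where chromatin is open. A region counted as a member when a peak of the replicate 1 list overlapped a peak of the replicate 2 list by at least 1 bp. This held for 9090 of 10525 replicate 1 peaks (86.4%, exact 95% interval 85.7 to 87.0) and for 9092 of 19507 replicate 2 peaks (46.6%). The peaks of all 8 libraries of the series merge into 74090 regions. The members were chosen by the peak calls of these libraries, so all values below are descriptions without tests.

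The series profiled 4 mTEC populations of C57BL/6 mice with 2 libraries each. mTEC-III was sorted as above. The other 3 were mTEC-I (CD45-, Epcam+, MHCII low, Itgb4+), mTEC-II (CD45-, Epcam+, MHCII high) and mTEC-IV (CD45-, Epcam+, MHCII low, Itgb4-, L1cam+). All were thus CD45- Epcam+ cells of enzyme-digested thymus. The labels name no allele or agent for any group, give no age, and do not say whether replicates came from separate animals or whether animals were pooled. In such bulk samples, fewer cells with an open region and less opening per cell cannot be told apart.

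As background, mTEC line the thymic medulla and display self antigens of many tissues to developing T cells, so that self-reactive cells can be removed. MHC class II molecules carry these antigens on the cell surface, and NF-kB signalling through receptors such as RANK and CD40 drives mTEC maturation. Some mTEC lose Aire after maturation and take on features of cornifying skin epithelium, to which Ly6d, Dmkn and Ovol1 relate. Promoters of widely used genes are open in most cell types, often lie in CpG islands, and are found by ATAC-seq more readily than distal elements.

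Promoter sequences of 8 genes with a member at the transcription start site (TSS) are shown because they carry the letters discussed with the strongest promoters, the MHC class II genes, and NF-kB and barrier regulators. Each runs from 250 bases before to 50 after the TSS of RefSeq, build GRCm38.p6, on the gene's strand, and was matched by symbol; coordinates of peaks elsewhere are in mm9. Capitals mark a match, on either strand, to the GC box GGGCGG, the CCAAT box, the ETS motif CCGGAAGT, the CRE motif TGACGTCA or the NF-kB motif, GGG and TTTCC with any 2 bases between them. The windows are Hjurp (chr1:88277530-88277829, minus strand), Stat3 (chr11:100939491-100939790, minus strand), H2-Aa (chr17:34287774-34288073, minus strand), H2-Eb2 (chr17:34325425-34325724, plus strand), H2-DMb1 (chr17:34152941-34153240, plus strand), H2-Ob (chr17:34238655-34238954, plus strand), Rel (chr11:23770920-23771219, minus strand) and Elf3 (chr1:135258423-135258722, minus strand).
Hjurp: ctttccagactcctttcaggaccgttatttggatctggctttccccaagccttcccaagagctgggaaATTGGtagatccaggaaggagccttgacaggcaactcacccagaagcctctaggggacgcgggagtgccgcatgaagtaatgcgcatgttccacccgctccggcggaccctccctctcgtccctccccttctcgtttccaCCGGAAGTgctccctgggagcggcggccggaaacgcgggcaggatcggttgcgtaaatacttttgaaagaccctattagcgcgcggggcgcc
Stat3: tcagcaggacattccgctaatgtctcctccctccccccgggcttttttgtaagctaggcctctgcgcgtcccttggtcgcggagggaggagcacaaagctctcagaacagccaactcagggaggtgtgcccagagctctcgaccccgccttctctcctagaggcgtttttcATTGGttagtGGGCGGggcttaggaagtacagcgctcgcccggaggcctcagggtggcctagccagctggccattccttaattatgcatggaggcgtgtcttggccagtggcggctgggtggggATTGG
H2-Aa: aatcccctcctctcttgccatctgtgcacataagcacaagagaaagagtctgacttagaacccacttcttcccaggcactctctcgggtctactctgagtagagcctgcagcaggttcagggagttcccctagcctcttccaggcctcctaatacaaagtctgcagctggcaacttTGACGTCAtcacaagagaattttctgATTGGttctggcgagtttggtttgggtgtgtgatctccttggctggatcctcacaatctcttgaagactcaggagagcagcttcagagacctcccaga
H2-Eb2: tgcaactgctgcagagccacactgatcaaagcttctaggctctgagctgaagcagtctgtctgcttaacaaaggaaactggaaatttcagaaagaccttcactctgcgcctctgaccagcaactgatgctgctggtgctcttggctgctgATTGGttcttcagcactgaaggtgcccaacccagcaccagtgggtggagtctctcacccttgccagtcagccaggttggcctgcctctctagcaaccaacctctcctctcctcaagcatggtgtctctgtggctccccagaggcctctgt
H2-DMb1: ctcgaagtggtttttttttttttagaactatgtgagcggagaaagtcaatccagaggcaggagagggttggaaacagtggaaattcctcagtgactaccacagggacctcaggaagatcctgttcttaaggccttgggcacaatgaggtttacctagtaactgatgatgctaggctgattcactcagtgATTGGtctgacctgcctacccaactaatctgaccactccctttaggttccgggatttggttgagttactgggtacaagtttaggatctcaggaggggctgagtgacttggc
H2-Ob: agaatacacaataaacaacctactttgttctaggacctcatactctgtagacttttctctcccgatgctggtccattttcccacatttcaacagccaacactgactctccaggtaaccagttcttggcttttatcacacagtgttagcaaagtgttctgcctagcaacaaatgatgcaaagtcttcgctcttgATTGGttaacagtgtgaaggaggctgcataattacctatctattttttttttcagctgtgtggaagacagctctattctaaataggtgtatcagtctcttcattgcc
Rel: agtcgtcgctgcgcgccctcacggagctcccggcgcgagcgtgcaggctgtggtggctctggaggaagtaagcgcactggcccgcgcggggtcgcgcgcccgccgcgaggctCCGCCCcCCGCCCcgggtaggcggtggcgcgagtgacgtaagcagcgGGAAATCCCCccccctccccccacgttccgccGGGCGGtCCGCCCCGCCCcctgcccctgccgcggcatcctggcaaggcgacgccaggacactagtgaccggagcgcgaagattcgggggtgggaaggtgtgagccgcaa
Elf3: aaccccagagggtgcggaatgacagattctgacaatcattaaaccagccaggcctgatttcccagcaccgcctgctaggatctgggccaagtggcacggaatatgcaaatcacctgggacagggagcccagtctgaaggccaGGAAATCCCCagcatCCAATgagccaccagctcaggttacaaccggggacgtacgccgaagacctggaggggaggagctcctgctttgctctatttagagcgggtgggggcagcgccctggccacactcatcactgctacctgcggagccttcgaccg
In the 4 class II promoters the CCAAT box stood in reverse, as ATTGG, and began 48 bases before the TSS in H2-Aa, 100 in H2-Eb2, 61 in H2-DMb1 and 57 in H2-Ob. In H2-Aa a TGACGTCA began 74 bases before the TSS. As background, the X2 and Y boxes of class II promoters are a CRE-like element and an inverted CCAAT box. The NF-kB letters of Rel and Elf3 read GGAAATCCCC, beginning 91 and 108 bases before their TSS. A match of letters is a description and not a site.

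Both mTEC-III libraries had a smaller share of their tags in peaks than the rest of the series. They held 5131245 tags in replicate 1 and 6537908 in replicate 2, against 3606436 to 10374623 in the other 6 libraries. Only 2.5% and 4.33% of their tags fell in their own peaks, against 6.5% to 10.08% in the others. The shares in merged peaks were 8.44% and 11%, against 14.2% to 19.7%. Peak lists of the other 6 held 19008 to 44288 peaks, so the mTEC-III replicate 1 list, which limits the members, was the shortest of the 8. How much of the landscape below follows from this was not tested.

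Members were weak peaks for the most part. Their median signal was 20.5 normalized tags, scaled to 10000000 tags a library, in replicate 1 (quartiles 15.6 and 27.3) and 26 in replicate 2 (quartiles 19.1 and 35.9). These correspond to 10.5 and 17.0 tags before scaling. The median member stood 13.5-fold over its surroundings in replicate 1 and 14.3-fold in replicate 2. Values were higher in replicate 2 for 7011 members (77.1%), with a median ratio of replicate 2 to replicate 1 of 1.23. The log2 ratio varied between members with an SD of 0.381, and for 97.2% of members it lay within 1 of 0. Across the 9090 peaks, which share the libraries' depth, Pearson's r of the log2 values was 0.814.

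**Figure D1:**
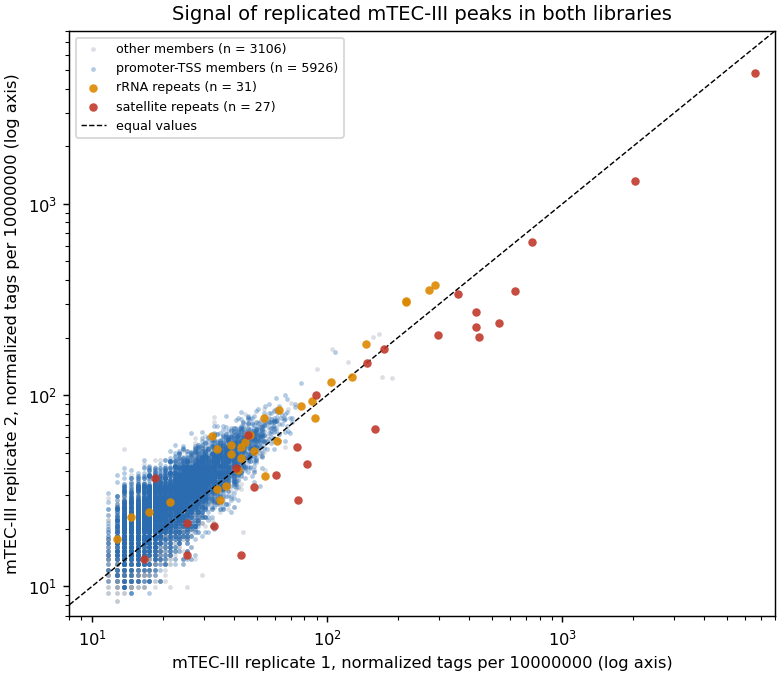
Normalized tags per 10000000 of each of the 9090 members in replicate 1 (x) and replicate 2 (y), both on log axes, coloured by annotation; the dashed line marks equal values. The median member has 20.5 in replicate 1 and 26 in replicate 2, and the highest points are satellite repeats.

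Peaks with more signal replicated more often. When replicate 1 peaks were split by score into 10 bins of equal size, 69.3% of the lowest bin and 96.4% of the highest were members. The members' replicate 1 median of 20.5 compares with 15.6 in the 1435 replicate 1 peaks outside (quartiles 13.6 and 19.5). The lowest members in replicate 1, near Pdcl3, Dbi and Trmt11, had 11.7 tags there and 12.2, 13.8 and 13.0 in replicate 2. The highest replicate 1 peaks outside lay near Pisd-ps3 (73.1), Hnrnpc (67.2) and Sept7 (64.3). At Hnrnpc, which encodes a pre-mRNA binding protein, replicate 2 had a peak of 67.3 tags next to that of replicate 1, in the same merged region but without a shared base. The same was seen at Sept7, where replicate 2 had 61.9 tags. In all, 470 of the 1435 shared a merged region with a replicate 2 peak in this way, and the rule leaves them out.

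Open chromatin shared by both libraries lay mainly at gene starts. Of the members 6388 (70.3%, exact 95% interval 69.3 to 71.2) were centred within 1 kb of a TSS, against 48.8% of replicate 1 peaks outside, 33.9% of replicate 2 peaks outside and 24.1% of all merged regions. The whole replicate 1 list, from which members are drawn, already had 67.3%. Its share was 39.3% in the lowest score bin and 85.6% in the highest. Merged regions are an unlike set, since they need a peak in any library only. By the authors' annotation 65.2% of members were promoter-TSS, 12.9% intron and 16.5% intergenic. All merged regions held 18.3%, 37.6% and 37.3% of these classes. Exons held 149 members, 5′ UTRs 180, 3′ UTRs 32 and transcription ends 85. Promoter-TSS peaks of replicate 1 recurred in 91.6% of cases, intergenic ones in 79.6% and intronic ones in 75.1%. Promoter-TSS members were also the stronger class, with medians of 22.4 and 29.8 normalized tags, against 16.6 and 19.1 for introns and 17.5 and 19.1 between genes.

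**Figure D2:**
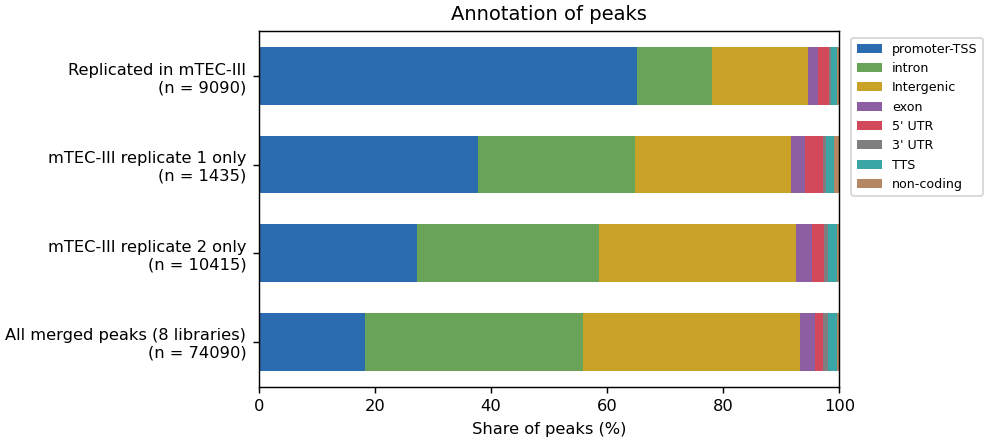
Share of peaks (%) in each class of the authors' annotation, for members, replicate 1 peaks outside, replicate 2 peaks outside and all merged regions; n is the number of peaks. The promoter-TSS share is 65.2% in members and 18.3% in merged regions.

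Members at gene starts sat just upstream of the TSS. The centre of their merged region had a median position of -43 bp, with quartiles of -100 and 8 bp. It was upstream for 4591 (71.9%) and within 100 bp on either side for 4265 (66.8%).

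**Figure D3:**
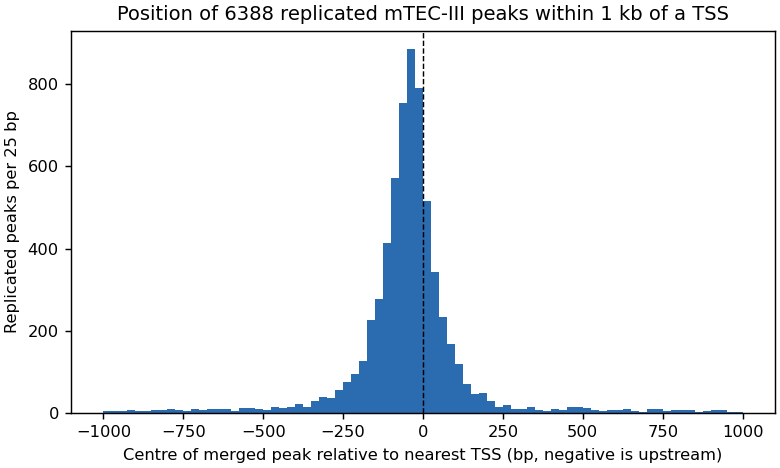
Number of members per 25 bp (y) by position of the merged region's centre relative to the nearest TSS in bp (x), for the 6388 members within 1 kb; negative is upstream. The peak of the histogram lies just upstream of the TSS, with the median at -43 bp.

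Letters in the promoter windows of these genes were GC-rich. Of 5053 genes with a member centred in the window, 3973 had a RefSeq window and 3224 had exactly 1, which were searched on both strands. The median GC content was 62.7%, against 50.3% in 18913 windows of genes with no member within 1 kb. GGGCGG stood in 75.9% of member windows, against 27.1% of those without a member and 35.2% of all 22862 windows. CCGGAAGT, bound by ETS factors, stood in 11.4%, against 2.51% and 3.95% of all. The NRF1 letters, GCGC and GCGC with any 2 bases between them, stood in 20.5%, against 3.71% and 6.32% of all. CCAAT differed less, with 47.0%, against 36.9% and 38.2% of all. TATAAA went the other way, with 5.06%, against 16.8% and 14.8% of all, and so did the AP-1 letters TGANTCA, with 3.78%, against 8.87% and 7.98% of all. The NF-kB letters were about as frequent with a member (1.74%) as without one (1.57%) or in all (1.60%). AACCNGTT, the letters of grainyhead-like factors, stood in 1.71%, against 1.99% without a member and 1.96% of all. GC-rich letters arise more often in GC-rich windows by composition alone.

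The strongest members were repeats rather than gene elements. Of the 20 highest by mean signal 11 lay in satellite repeats and 5 in rRNA repeats. The highest, chr2:98507077-98507233, lies in a mouse major satellite repeat between genes and had 6597.8 normalized tags in replicate 1 and 4828.0 in replicate 2. A satellite peak at chr9:35112960-35113116 had 2047.3 and 1323.1, and one in an intron of Chl1, chr6:103599094-103599250, had 739.6 and 629.4. The highest rRNA repeat, chr3:5860615-5860771, had 287.5 and 374.7. The 27 satellite members had medians of 89.6 in replicate 1 and 66.5 in replicate 2, and the 31 rRNA members 46.8 and 56.6, so the order of the libraries differs between the classes. Together these 58 members held 7.17% of all tags in members in replicate 1 and 4.59% in replicate 2. In the merged table the top locus had 3624.85 and 2709.58 tags in mTEC-III, within the 2009.23 to 3675.37 of the other 6 libraries. The second had 2902.8 and 1573.13, against 1588.83 to 2623.12. These values differ from those of the peak lists, being lower at the top locus and higher at the second. Values of the merged table and of the peak lists are thus not interchangeable. All 5 rRNA loci among the strongest 20 lay below the other 6 libraries in both replicates, as with 449.21 and 608.76 at chr3:5860615-5860771, against 670.46 to 2062.39. This was not particular to rRNA repeats. The peak near Cr2 (295.25 and 382.39, against 493.56 to 1144.76) and the Hjurp promoter (126.67 and 199.61, against 295.43 to 445.74) also lay below. Of the strongest 10 promoters all lay below in replicate 1. In replicate 2 the exceptions were Dnpep, Wdr18, Calm3 and Vkorc1l1. Peaks over 10 kb from a TSS and outside repeats, from Cr2 down to Wnt7b in strength, mostly lay below in both replicates. Only the peak near Ly6c2 did not. Reads of near-identical repeat copies cannot be placed with certainty, and how multiply mapping reads were handled is not given in the sources used here.

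The other 4 of the strongest 20 lay near Cr2 (166.6 and 209.5), Limd1 (155.9 and 200.4), Mir101c (188.1 and 123.1) and Ly6c2 (171.5 and 123.9). The Mir101c peak shares the stretch chr9:3000001-3100000 with satellite members of the strongest 20. The Cr2 locus, chr1:197067741-197067897, is a CpG island 64950 bp upstream of this complement receptor gene, and Ly6c2 is 25188 bp from its peak. The nearest gene is a label of position in these cases and says nothing of the gene's use.

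Among promoters, the highest member was that of 2610005L07Rik, with 108.2 normalized tags in replicate 1 and 167.5 in replicate 2. Next came Hjurp, whose protein loads the centromeric histone CENP-A, with 77.0 and 116.2 (chr1:90174143-90174299). Dnpep, an aspartyl aminopeptidase, had 66.3 and 100.2. The kinase gene Mknk2, which phosphorylates eIF4E, had 73.1 and 90.2, and Wdr18, a ribosome biogenesis factor, had 67.2 and 95.6. Signalling and transcription were represented by Calm3, a calmodulin gene (67.2 and 81.1), by Stat3, the transcription factor downstream of IL-6 family cytokines (56.5 and 90.2 at chr11:100800902-100801058), and by Sp1, which binds GC boxes (61.4 and 83.4). Fem1c showed nearly equal values in both libraries, 71.1 and 71.9. Each of the 20 highest promoters was in the peak lists of all 8 libraries. Pisd-ps2 is a pseudogene, so its tags may come in part from other copies, which was not tested. By its symbol the same caution holds for Pisd-ps3, named elsewhere here.

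**Figure D4:**
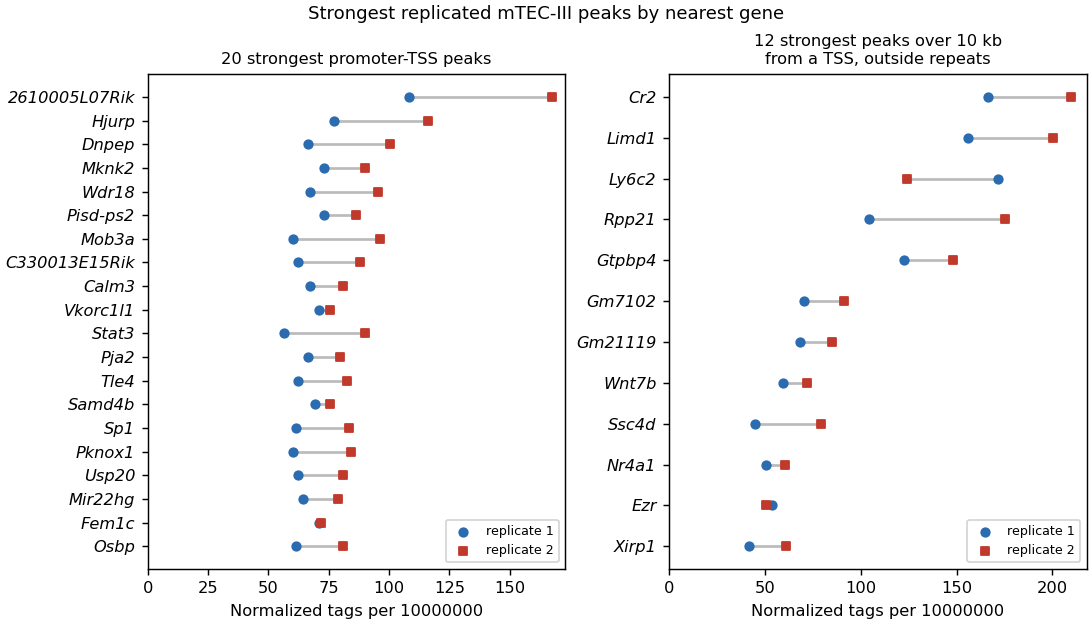
Normalized tags per 10000000 (x) in replicate 1 (circles) and replicate 2 (squares) for the 20 strongest promoter-TSS members (left) and the 12 strongest members over 10 kb from a TSS outside repeats (right), by nearest gene. Among the promoters 2610005L07Rik leads with 108.2 and 167.5, and replicate 2 is the higher library for all 20.

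Distal members were fewer and lower. Over 10 kb from any TSS lay 1763 members (19.4%), with medians of 16.6 and 18.4 normalized tags, and over 100 kb 236 (2.60%). Of the 1763, 675 were intronic and 1021 intergenic, 172 lay in CpG islands and 1381 in neither a repeat nor an island. Outside repeats, and after Cr2, Limd1 and Ly6c2, the highest lay near Rpp21 (104.3 and 175.1), Gtpbp4 (122.8 and 148.4), Gm7102 and Gm21119. Then came a CpG island 52793 bp upstream of Wnt7b, a Wnt ligand gene (59.4 and 71.9 at chr15:85464994-85465150), an intronic site 11803 bp from the TSS of Ssc4d (44.8 and 79.5), and an island 20368 bp upstream of Nr4a1, an immediate early nuclear receptor (50.7 and 60.4). Another lay 45255 bp upstream of Ezr, which links membrane and actin (53.6 and 50.5). The peaks near Cr2, Limd1, Rpp21 and Gtpbp4 stood 38.36- to 49.73-fold over their surroundings. The medians of rRNA members were 37.7-fold in replicate 1 and 41.1-fold in replicate 2. Those near Ly6c2 (17.57 and 18.6) and Wnt7b (17.74 and 18.38) stood lower. Whether reads of other copies add to these peaks was not tested. Intronic members outside repeats, at any distance, were led by Pisd-ps3 (90.6 and 136.9), 104 bp from its TSS. Chd2, a chromatin remodeller (60.4 and 73.4), followed at 3865 bp, then Zbtb2 at 1099 bp (53.6 and 75.7). Next were Fkbp2 at 106 bp (62.4 and 62.7), Ssc4d, and Cic, a transcriptional repressor, at 457 bp (56.5 and 66.5). Of these only Ssc4d was distal. Over 100 kb the highest outside repeats, near 1700099I09Rik, reached 40.9 and 42.8.

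By the authors' nearest-TSS assignment 7790 genes had a member, and 6723 of them (86.3%) had 1. Within 10 kb of the TSS 6907 genes had a member, 37.9% of the 18215 genes named in the merged table. Genes with at least 3 numbered 184 at any distance and 25 within 10 kb. The most, 7, fell to Mir101c, and 6 of these were satellite peaks at the start of chromosome 9, up to 38465 bp from its TSS. Tomm20, an import receptor of mitochondria, had 6, of which 1 at the TSS (17.5 and 29.1) and the others 24862 to 113149 bp away. Ksr1, a scaffold of the Ras pathway, had 5, with 1 at the promoter (20.5 and 29.1) and 4 in introns, the highest 14192 bp in (30.2 and 31.4). Rbpj, the DNA-binding factor of Notch signalling, also had 5, the highest 1074 bp upstream (37.0 and 41.3). Med13l, Tex14, Synj2 and Xylt1 had 5 each, and the nearest of Med13l lay 82630 bp from its TSS. Ptma, encoding prothymosin alpha, had 4 with the highest sum among such genes, 160.8 in replicate 1 and 205.1 in replicate 2, of which the promoter gave 61.4 and 74.2. 1810026B05Rik also had 4.

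Within 10 kb, 4 genes had 4 members each. Nr1d1, a circadian nuclear receptor, had members at -13 bp (29.2 and 27.5), in introns at 1388 bp (34.1 and 41.3) and 2524 bp (35.1 and 50.5), and at -8107 bp (13.6 and 20.6). Mnt, a MYC antagonist, had them at -502 bp (32.2 and 35.9) and in introns up to 7652 bp in. Bcl3, an atypical IkB protein, had none at the TSS itself. Its 4 stood at -9406 bp (23.4 and 32.9), -8168 bp (14.6 and 16.1), -1596 bp (13.6 and 18.4) and 5159 bp (30.2 and 20.6). Synj2, a phosphoinositide phosphatase, was the fourth, with sums of 65.2 and 82.6. Among genes with 3, Lmna, encoding nuclear lamins A and C, had a member 6789 bp upstream (58.5 and 57.4) that was higher than those at its TSS (17.5 and 32.1) and at 267 bp (28.3 and 47.4). Cirbp and Gatad2a also had 3.

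Members crowded in a few stretches of 100 kb. The densest, chr13:23600001-23700000, held 10 around replication-dependent histone genes, among them Hist1h2be (16.6 and 21.4), Hist1h3f (23.4 and 29.1) and Hist1h2ad, which was higher in replicate 1 (25.3 and 15.3). Histone genes have near-identical copies, so the placing of these tags is uncertain. The stretch chr10:79600001-79700000 held 9 around Atp5d, Midn, Cirbp and Mum1. Another 9 lay in chr15:101800001-101900000 around the simple-epithelium keratins Krt8 and Krt18. There the Krt8 promoter had 20.5 and 30.6, the Krt18 promoter 13.6 and 17.6, and a site 10078 bp upstream of Krt18 was higher than both promoters, with 24.4 and 42.8.

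Of the 4 markers given for mTEC-III 1 had a member within 10 kb, a share (25%) near the 30.0% of all RefSeq protein-coding genes. The count was 0 at 8-fold over the surroundings and 3 in either library's own peak list. Ly6d, the sort marker, had none: replicate 1 had a peak of 15.6 tags 2463 bp from the TSS and replicate 2 one of 19.1 tags 2650 bp from it, which did not overlap. Its promoter region in the merged table held 1.95 and 10.71 tags. Ovol1, a repressor in epithelial differentiation, had a promoter peak in each library (20.5 in replicate 1, 28.3 in replicate 2) in 1 merged region, again without a shared base. Dmkn, a secreted skin protein, had no peak in either library. H2-Ab1, the class II beta chain, had 2 members, at -49 bp (34.1 and 46.7) and at -5365 bp (31.2 and 34.4). The members are therefore named here by their rule and not as signs of a cell type. Epcam, on which all populations were sorted, had 2 distal members, at -26183 bp (23.4 and 22.9) and -15872 bp (12.7 and 16.1), and a peak near the TSS in replicate 2 alone. Aire had a TSS peak in replicate 2 alone (18.4), and Ptprc, encoding CD45, had no peak in either library.

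Gene lists are set against all 21896 RefSeq protein-coding genes, of which 6570 (30.0%) had a member within 10 kb. With members of at least 8-fold signal over their surroundings in both libraries, the share was 27.5%. MHC class II genes had a member in 11 of 15 cases, and in 7 at 8-fold. H2-Aa had members at -114 bp (29.2 and 32.1) and -8482 bp (40 and 41.3), the distal one higher in both libraries. H2-Eb1 had none at its TSS but 2 around it, at -4572 bp (38.0 and 51.2) and 7718 bp (22.4 and 26). The lower promoters were those of H2-DMb1 (21.4 and 22.2), which helps load peptides, and H2-Ob (17.5 and 18.4), which opposes this. Cd74, the invariant chain, had 41.9 and 60.4 at its promoter. The 3 subunits of the RFX complex, which binds class II promoters, all had promoter members, with Rfx5 at 44.8 and 49.7, Rfxank at 41.9 and 43.6 and Rfxap at 28.3 and 40.5. These 3 promoter members and those of H2-Ab1, H2-Aa, H2-Eb2, H2-DMb1, H2-Ob and Cd74 were in the peak lists of all 8 libraries. That of H2-DMb2 was in 6 lists, and both members of H2-Eb1 were in 7. Ciita, the class II transactivator, had a single member 14682 bp upstream (24.4 and 29.8) and none within 10 kb, and H2-DMa, H2-Oa and Ctss had none within 10 kb either.

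NF-kB genes had a member in 16 of 18 cases, and in 10 at 8-fold over the surroundings. Of the DNA-binding subunits, Nfkb2 had members at -122 bp (30.2 and 37.5) and -26 bp (34.1 and 34.4), Rel at its promoter (26.3 and 48.9), Rela at -20 bp (33.1 and 31.4), and Relb at 44 bp (21.4 and 29.8) and in an intron at 727 bp (50.7 and 57.4). Nfkb1 had none within 10 kb. Of the signalling genes, Map3k14, encoding the kinase NIK, had 40.9 and 74.2, Traf2 39.0 and 50.5 at its promoter, Birc3 29.2 and 52.0, Cd40 16.6 and 18.4, and Tnfrsf11a, encoding RANK, 15.6 and 20.6. Of the inhibitors, Tnfaip3 had 31.2 and 29.8 at its promoter. Ltbr, the lymphotoxin beta receptor, had none.

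AP-1 and early response genes had a member in 9 of 12 cases, but in 5 (41.7%) within 1 kb of the TSS, against 27.6% of all genes. At 8-fold over the surroundings 2 had one (16.7%), which is below the 27.5% of all genes. Jund had the highest, in its 5′ UTR annotation (53.6 and 84.9). Promoter members were those of Atf3 (32.2 and 58.1), Jun (41.9 and 48.2), Fosb (30.2 and 42.8), Dusp1 (30.2 and 32.9) and Fosl1 (16.6 and 24.5). Zfp36 had its member at -1967 bp (35.1 and 39.8), and the higher of the members of Ier2 within 10 kb lay at 5930 bp (34.1 and 39.8). Fos had none within 10 kb but 3 farther off, at -18571 bp (38.0 and 53.5), 12196 bp (29.2 and 42.8) and 24116 bp (19.5 and 25.2). Fosl2 and Junb had none within 10 kb.

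Barrier regulators had a member in 8 of 14 cases, and in 6 at 8-fold. The epithelial ETS factor Elf3 had 33.1 and 37.5 and its relative Ehf 18.5 and 22.9. The Kruppel-like factors Klf4 and Klf5 had 29.2 and 40.5, and 30.2 and 32.9. Cebpa, another factor of epidermal differentiation, had 32.2 and 35.9. Grhl1, a grainyhead-like factor, had members at its promoter (25.3 and 29.1) and in introns at 12659 bp and 20299 bp. Grhl2 had only distal members, and so did Trp63, encoding the basal epithelial factor p63, at -147013 bp (14.6 and 13.0). Of structural and other genes of the cornified layer 2 of 23 had a member, Sprr1a (19.5 and 10.7) and Klf4, which is on both lists. Ivl, Flg and Tgm3 had no merged region assigned within 10 kb, and Lor and Krtdap had regions but no peak in either mTEC-III library. Replicate 2, but not replicate 1, had a peak within 10 kb of Krt1, Krt10, Cdsn and Grhl3. In all, 6 of the 23 genes had a replicate 2 peak there, against 10090 of all 21896 protein-coding genes.

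Other epithelial lists lay in between. Medullary TEC genes had a member in 5 of 10 cases (Relb, Krt8, Cldn4, Krt14 and Tnfrsf11a), of which 1 held at 8-fold. Thymic epithelium genes had one in 3 of 8 cases (Pax9 and Six4 among them, but not Foxn1), with 1 at 8-fold, and cortical TEC genes in 3 of 7, all 3 at 8-fold. At 8-fold the medullary TEC (10.0%) and thymic epithelium (12.5%) lists were below the 27.5% of all genes. Among the cortical genes Ccl25, a chemokine for thymocyte precursors, had 26.3 and 31.4 at its promoter. Tuft cell genes had 1 of 14, Gfi1b, and tissue-restricted antigens 1 of 12, Mbp. None of 12 thymocyte, 5 B cell, 9 myeloid and dendritic, 8 mesenchyme and 8 endothelium genes had a member within 10 kb. Within 100 kb, the B cell gene Cd79b had an intronic member at -11420 bp (19.5 and 13.8). The endothelium gene Erg had an intronic one at 26608 bp (13.6 and 11.5). Cd3e, Itgax and Cdh5, defining genes of thymocytes, dendritic cells and endothelium, had no merged region assigned within 10 kb. Replicate 2, but not replicate 1, had a peak within 10 kb of 3 thymocyte genes (Rag1, Bcl11b and Tcf7), 3 myeloid and dendritic genes (Cd68, Zbtb46 and Spi1), 1 mesenchyme gene (Col1a1) and 1 endothelium gene (Erg). The merged table lists the Rag1 region at 0 tags in both libraries. The summed merged-table tags were highest at Zbtb46 (39.9 in replicate 1 and 72.7 in replicate 2) and Bcl11b (35.1 and 58.1) among these. The part of other cell types in the members was not tested. Of 12 housekeeping genes 11 had a member (7 at 8-fold), with Actb at 37.0 and 50.5 at its TSS.

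**Figure D5:**
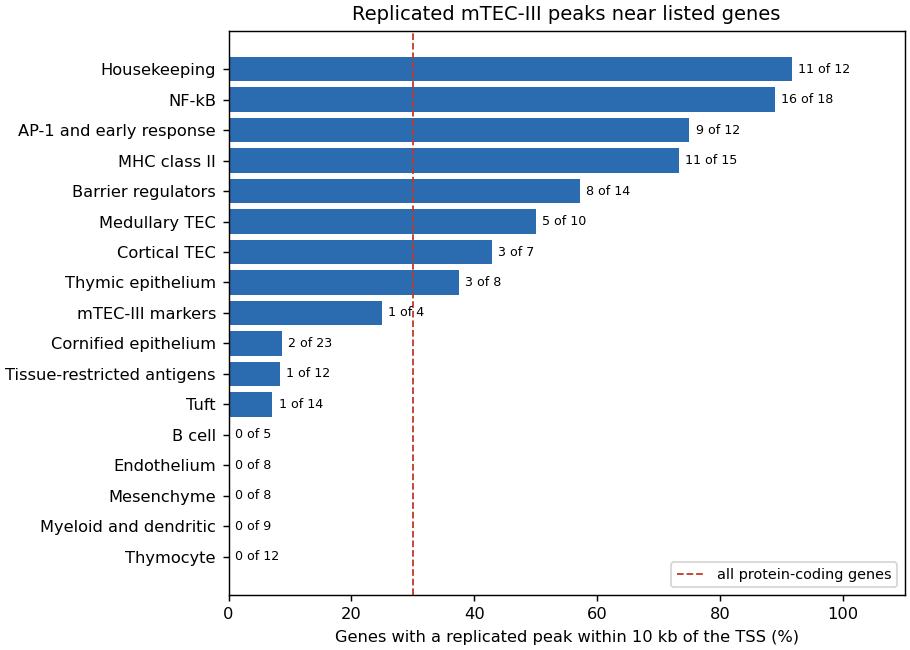
Share of genes (%) in each list with a member within 10 kb of the TSS, with the number of genes; the dashed line marks the 30.0% of all RefSeq protein-coding genes. NF-kB (16 of 18), AP-1 and early response (9 of 12) and MHC class II (11 of 15) stand at the upper end near housekeeping genes (11 of 12), and lists of other lineages at 0; at 8-fold over the surroundings the counts are 10, 2, 7 and 7.

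Most members were called in every library of the series. The peak lists of all 8 libraries included 7426 members (81.7%), against 7788 (10.5%) of the merged regions. These sets are unlike: members have peaks in both mTEC-III lists by the rule, whereas a merged region needs a peak in any library only. The gap between the shares is therefore set in part by the rule. Among members, the share in all 8 lists was 93.6% within 1 kb of a TSS and 49.1% over 10 kb away. In the mTEC-III lists alone were 47 members (0.517%), of which 9 lay within 1 kb of a TSS, 29 in introns and 11 between genes. They were weak, with medians of 14.6 and 14.5 normalized tags, and the strongest lay near Phf20 (32.2 and 33.6). A region missing from a list may still hold tags below the authors' threshold, so these 47 are not shown to be particular to mTEC-III.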

How the data were processed

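Peaks were called by the authors with HOMER findPeaks, separately per library, then merged over the 8 libraries and annotated on mm9, per the file headers. The deposited lists give each peak's signal in normalized tags per 10000000 of the library, a findPeaks score, used only to rank peaks, a fold over the surrounding sequence, a p-value against it, and a fraction called the focus ratio; the last 2 were not used. Tools named in the submitters' processing notes are HOMER, Picard 1.108 and bcl2fastq 2.15.0.4. Aligner, duplicate removal and transposase shift were not given in the sources used here.

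Overlaps, annotation by the merged peak with the largest overlap, and gene counts were computed in Python 3.11.15 with pandas 2.3.3, and checked on simulated peaks. Exact intervals (Clopper-Pearson, scipy 1.17.1) cover counting error only. Peak values are the authors' own, one per library, so both are printed in place of an SD. Groups come from the sample titles. The members and lists were chosen with earlier results of these data known. Named were the 20 strongest members, the 10 genes with most members at any distance and within 10 kb, the 5 strongest intronic, distal (over 10 kb) and far distal (over 100 kb) members, markers, up to 4 genes per list, genes without a member, and peaks just inside and outside. Strongest promoters, rankings outside repeats, dense stretches, motifs, gene families and further list genes were named after their values were seen. Alternatives varied the overlap, the base list, the fold over local background, the distance windows, the replicate and repeats. Some genes that the rule names are not reported here.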

Additional observations from a re-analysis of the deposited data

How the results depend on the processing

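The number of members was 9090. It became 7344 with an overlap of at least 50% of the replicate 1 peak, 7962 with at least 8-fold signal over local background in both lists, and 7650 with the replicate 2 list shortened to its best-scored peaks. The share within 1 kb of a TSS, 70.3%, became 73.2% at 8-fold, 77.5% with the shortened list, 67.6% within 500 bp and 72.4% within 2000 bp. Leaving out each replicate in turn gave 10525 to 19507 peaks, a share of 50.9% to 67.3%, and 7624 to 10763 genes within 10 kb, against 6907. Outside these, the added settings chosen after seeing the data (without satellite and rRNA repeats, 9032 peaks, and counting any replicate 2 peak in the same merged region, 9560 peaks) left the share at 70.7% and 70.4%. Of the 20 strongest loci, 7 stayed when ranked by fold over local background, 19 by replicate 1 alone and 18 by replicate 2 alone. Of the 10 genes with most members, 2 stayed within 10 kb. At 8-fold, 8 of the 17 gene list counts fell by over 1.5 times, among them AP-1 and early response, with 2 genes against 9. The cause was not tested. No paired analysis was possible because no test between groups was made.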

Other observations

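Gene families picked by their symbols, after the values were seen, varied widely around the 30.0% of all protein-coding genes with a member within 10 kb. Ribosomal protein genes had one in 64 of 81 cases (79.0%), proteasome subunits in 27 of 40 and RNA helicases of the DEAD and DEAH box groups in 33 of 53. Zinc finger genes with a Zfp symbol were near the background, with 138 of 397 (34.8%), and so were histone cluster genes, with 22 of 58. Interleukin genes had 7 of 37, keratins 4 of 49, serpins 4 of 63, cytochrome P450 genes 4 of 98 and Hox genes 2 of 39. Olfactory receptors had 5 of 1110, and vomeronasal receptors (353), beta-defensins (42) and bitter taste receptors (35) had none.

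Chromosome 11 carried the most members, 781, which is 8.59% of all, against 7.32% of merged regions. Other chromosomes also exceeded their share of merged regions, among them 7 (7.37%, against 6.15%) and 17 (5.27%, against 4.31%). Chromosome X carried 119 (1.31%, against 1.49%), and chromosome Y 1.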
